A study of Mus musculus with 4 samples.

Results

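Neural intermediate filaments were followed in 2 sublines of transformed mouse neural stem cells, the tumorigenic glioma-initiating cell-like cells (GIC, 2 arrays) and the nontumorigenic cells (non-GIC, 2 arrays). The members are the 10 genes Nes, Vim, Gfap, Synm, Ina, Nefl, Nefm, Nefh, Prph and Des, taken as every probe set annotated to one of them. They account for 24 of 45101 probe sets, and for 10 of the 18193 genes with a named probe set. Both sublines came from the telencephalon of C57BL/6 embryos at day 14.5, carried the p53-/- genotype, grew in serum-free medium with PDGF, bFGF and forskolin, and were selected after transfection with pCMS-EGFP-HRasL61 and pBabe-neo. The GIC and non-GIC cells therefore share the p53 loss and the HRasL61 oncogene, and what differs by label is whether the subline formed tumors. No label tells whether a subline's arrays stem from different cultures, so the p-values below measure only the spread between these arrays, which may be technical. With 1 tumorigenic and 1 nontumorigenic subline, tumor formation cannot be told apart from any other difference between them. Precision is limited by having only 2 arrays per subline.

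Intermediate filaments are rope-like cytoplasmic polymers built from coiled-coil proteins, and each cell lineage uses its own set. In the developing brain, neural stem cells make nestin (Nes) and vimentin (Vim), which assemble together. Astrocytes add glial fibrillary acidic protein (Gfap), neurons change to internexin alpha (Ina) and the neurofilament subunits (Nefl, Nefm, Nefh), peripheral and some central neurons make peripherin (Prph), and muscle cells make desmin (Des). Synemin (Synm) is a large partner that joins filaments of vimentin, desmin or Gfap.

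Nes fell in the GIC subline, by 2.07 on the log2 scale (4.19-fold lower), and no other member passed the test. For Vim, whose product assembles with nestin, the log2 difference between the sublines was -0.01. The neurofilament genes and Ina stayed below the level filter on every array of both sublines. Of the 10 members, 5 passed the level filter and were tested as genes (Nes, Vim, Gfap, Prph and Des), and 1 of them passed the test, against a background of 1.92% of 13366 tested genes in either direction and 0.688% in the downward direction. Each adjusted p comes from limma, corrected by Benjamini-Hochberg over the whole table, and a call needed a value under 0.05. Genes entered the fit through their brightest probe set if its signal exceeded 5.97 (percentile 40 of the table) on 2 or more arrays. Signals are on a log2 scale throughout, and levels of different probe sets are not set against each other, since each has its own affinity.

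The promoters of Nes and Vim are shown because Nes passed the test and its assembly partner did not. The sequences are the 250 bases before the annotated start, 5′ to 3′, from RefSeq on build GRCm38.p6, and the table used here was matched for 7 of the 10 members. Nes is at chr3:87970843-87971092 (plus strand) and Vim at chr2:13574061-13574310 (plus strand). Capitals mark matches, on either strand, to the TATA box (letters TATAAA), the CCAAT box (its own letters) and the GC box (letters GGGCGG).
Nes: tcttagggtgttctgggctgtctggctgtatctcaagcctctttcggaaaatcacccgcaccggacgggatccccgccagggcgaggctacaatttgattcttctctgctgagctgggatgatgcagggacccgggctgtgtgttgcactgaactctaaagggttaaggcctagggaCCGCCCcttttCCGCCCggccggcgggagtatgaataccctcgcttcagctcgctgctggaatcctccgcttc
Vim: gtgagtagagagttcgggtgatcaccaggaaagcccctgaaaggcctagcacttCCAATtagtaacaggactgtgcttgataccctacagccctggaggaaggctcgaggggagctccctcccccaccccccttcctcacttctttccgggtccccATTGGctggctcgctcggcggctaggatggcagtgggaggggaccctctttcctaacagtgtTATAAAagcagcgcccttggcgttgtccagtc

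The Nes window held 2 GC boxes, starting 73 and 62 bases before the start, and no match to the other motifs. The Vim window held a TATA box 32 bases before the start and 2 CCAAT boxes, starting 196 and 94 bases before it, with no GC box. Among 32851 annotated promoter windows of the same length, 12.4% held a TATA box, 33.8% a CCAAT box and 32.7% a GC box. Of the other matched promoters, that of Prph had 1 TATA box and 1 GC box, those of Ina and Des had 2 GC boxes each, that of Synm had 1 CCAAT box, and that of Gfap had no match. The Nes and Vim windows had 58.8% and 58.4% G or C, and held the letters CG 15 and 8 times. A match is a description of the letters and says nothing of a factor bound there.

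Nestin, the stem cell filament protein with a very long tail, was measured by 3 probe sets. Its brightest probe set, 1449022_at, had signals of 9.17 and 8.97 in GIC, against 11.45 and 10.81 in non-GIC. Both GIC arrays lay below both non-GIC arrays, and the gap of 1.64 between the nearest arrays of the sublines was wider than the 0.20 between the GIC arrays and the 0.64 between the non-GIC arrays. The GIC mean was 9.07 ± 0.14 and the non-GIC mean 11.13 ± 0.45 (SD, n = 2 each), a log2 fold change of -2.07 (SE 0.27, 95% interval -2.77 to -1.37, limma adjusted p = 0.0459). All 4 values lay above the filter level, so the test of Nes did not depend on the subline in which it was high.

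The other Nes probe sets had the same direction and other sizes. Probe set 1418289_at had 8.05 and 7.91 in GIC, against 9.90 and 9.40 in non-GIC. Probe set 1453997_a_at had 6.08 and 5.46 in GIC, against 9.35 and 8.44 in non-GIC. The GIC arrays were thus lower on every Nes probe set with no overlap, and on 1453997_a_at one of them lay under the filter level. Groups did not overlap in 46.8% of all named probe sets, and all Nes probe sets were read on the same arrays. In a fit over 24100 named probe sets past the filter, where 1.70% passed in either direction and 0.660% downward, the log2 fold changes were -2.07 for 1449022_at (adjusted p = 0.0464), -3.12 for 1453997_a_at (SE 0.38, adjusted p = 0.0400) and -1.67 for 1418289_at (SE 0.23, limma adjusted p = 0.0513). The last missed the threshold, and the 95% intervals of the 3 differences overlapped, from -2.25 to -1.08 for 1418289_at and from -4.11 to -2.14 for 1453997_a_at.

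The Nes call lies close to the threshold. With the first GIC array (replicate 1) dropped, the log2 fold change was -2.17 (limma adjusted p = 0.120), and with the second dropped it was -1.96 (adjusted p = 0.0974). Dropping the first non-GIC array gave -1.75 (limma adjusted p = 0.166), and dropping the second gave -2.39 (adjusted p = 0.0898). So the direction held and the size ranged from 3.35-fold to 5.23-fold lower, while the call was lost whichever array was left out. The call was also lost without a level filter (limma adjusted p = 0.0503) and with an eBayes fit without an intensity trend (adjusted p = 0.050, above the threshold before rounding). Over the whole table, 12 to 188 genes were called with 1 array left out, against 257 with all 4.

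**Figure D1:**
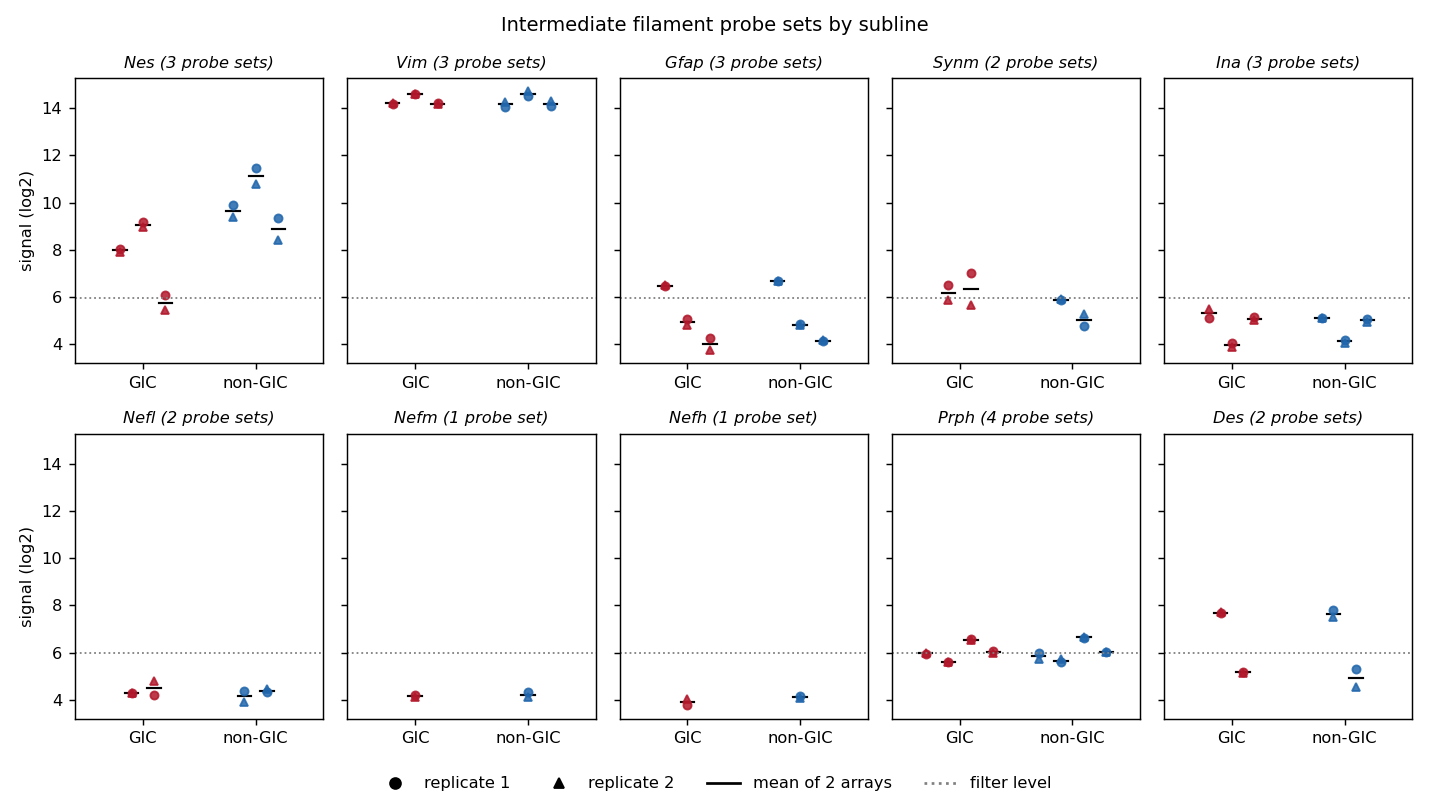
Signal (log2, vertical axis) of the 24 probe sets of the 10 filament genes, 1 panel per gene, with GIC left of non-GIC. Circles and triangles are replicates 1 and 2, short bars the mean of 2 arrays, the dotted line the filter level of 5.97, and probe sets stand side by side in the same order in both sublines; the 3 Nes probe sets are lower in GIC and the 3 Vim probe sets overlap between the sublines.

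Vimentin, the filament protein of progenitors and mesenchymal cells, did not pass the test on any of its 3 probe sets. Its brightest probe set had 14.61 and 14.59 in GIC, against 14.50 and 14.71 in non-GIC. The GIC values lay between the non-GIC values. The GIC mean was 14.60 ± 0.01 and the non-GIC mean 14.61 ± 0.15 (SD, n = 2 each), and the log2 fold change of -0.01 had a 95% interval of -0.30 to 0.29 (limma adjusted p = 0.986). The other Vim probe sets had differences of 0.03 and -0.01, and on each the sublines overlapped. Vim signals of this size lie near the top of the scale, as the highest value on an array was 15.04 to 15.12, and whether differences there are compressed was not tested.

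The change of Nes was also set against that of the other tested members. The log2 fold change of Nes minus that of Vim was -2.06. The same difference was -2.11 for Des, -1.97 for Prph and -1.86 for Gfap. In each of these 4 comparisons the exact two-sided permutation test over the arrays gave p = 0.333, which is the smallest p that 4 arrays allow.

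Gfap, the filament protein of astrocytes, had a single probe set past the filter. It had 6.47 and 6.51 in GIC, against 6.70 and 6.70 in non-GIC. The GIC arrays lay below the non-GIC arrays, but the difference of -0.21 (95% interval -0.48 to 0.07, limma adjusted p = 0.389) did not pass. The remaining Gfap probe sets stayed under the filter level on all arrays, with means of 4.93 and 4.03 in GIC and 4.84 and 4.15 in non-GIC. The tested Gfap signals, like those of the brightest Prph probe set below, lay near the array medians of 6.58 to 6.63. Whether they exceed background signal was not tested.

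Synemin, the large linking member, was not tested, since only GIC replicate 1 lay above the filter level on either probe set. Probe set 1457275_at had 7.03 and 5.65 in GIC, against 4.78 and 5.29 in non-GIC. Both GIC arrays lay above both non-GIC arrays, and GIC replicate 1 stood well above the other arrays. Without a filter its log2 fold change was 1.30 (SE 0.48, 95% interval 0.08 to 2.53, limma adjusted p = 0.309), which did not pass. Probe set 1455610_at had 6.51 and 5.87 in GIC, against 5.87 and 5.92 in non-GIC, so that GIC replicate 1 was again the high array and the sublines overlapped.

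The neuronal filament genes had low signals in both sublines. Internexin alpha, which neurons make early, and the light, medium and heavy neurofilament subunits were measured by 7 probe sets, all between 3.77 and 5.52 on the 4 arrays and under the filter level of 5.97. Nefl, the core subunit, had 4.23 and 4.81 in GIC, against 4.35 and 4.45 in non-GIC on its brighter probe set. Nefm had 4.21 and 4.11 in GIC, against 4.33 and 4.13 in non-GIC. Nefh, which has the longest tail of the subunits, had 3.77 and 4.06 in GIC, against 4.17 and 4.09 in non-GIC. Only for Nefh did the sublines not overlap, and its unfiltered difference was -0.22 (95% interval -0.54 to 0.11, limma adjusted p = 0.501). For Ina the unfiltered differences of the 3 probe sets were 0.17, -0.14 and 0.07, all with overlapping sublines. A signal under the filter level is not a statement that the RNA was absent.

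Peripherin, a neuronal filament protein, and desmin, that of muscle, gave small differences. The brightest Prph probe set had 6.57 and 6.52 in GIC, against 6.63 and 6.66 in non-GIC, a difference of -0.10 (95% interval -0.38 to 0.18, limma adjusted p = 0.679). The differences of the other 3 Prph probe sets lay between -0.05 and 0.09. The brighter Des probe set had 7.68 and 7.71 in GIC, against 7.80 and 7.50 in non-GIC, a difference of 0.04 (95% interval -0.38 to 0.46, limma adjusted p = 0.913). The GIC arrays lay between the non-GIC arrays here, and the non-GIC arrays were 0.30 apart.

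**Figure D2:**
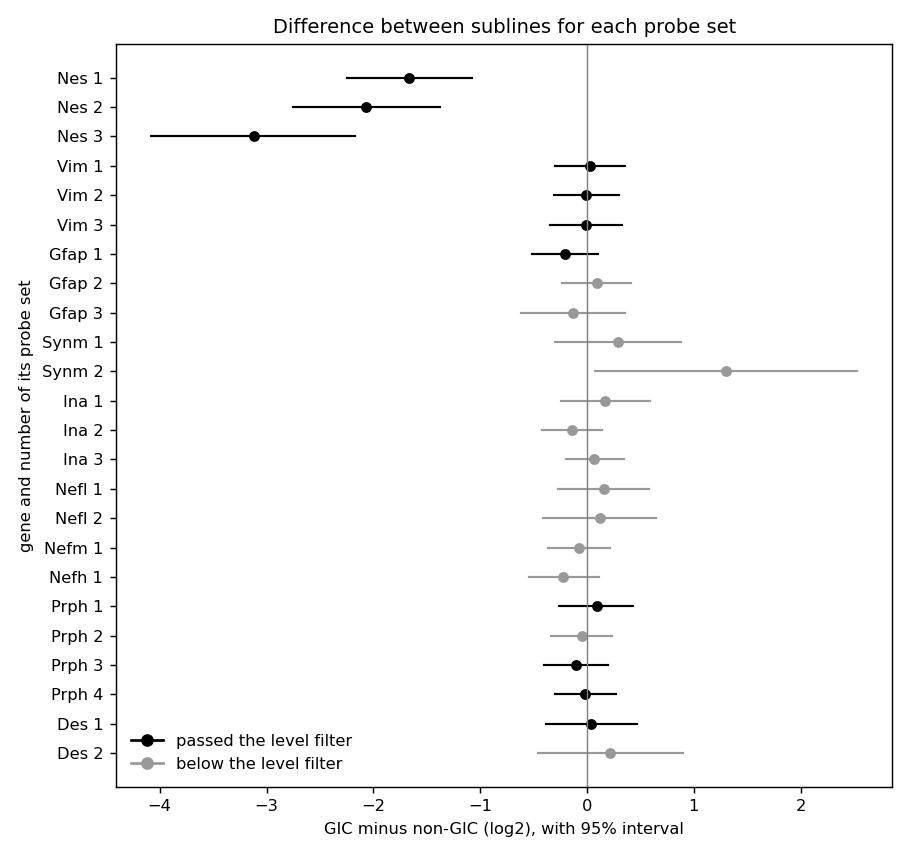
Difference of each of the 24 probe sets (GIC minus non-GIC, log2, horizontal axis) with its 95% interval, numbered within each gene by ID, from the limma fit of all named probe sets without a level filter. Black marks probe sets that passed the level filter and grey those below it. The intervals of the 3 Nes probe sets and of 1 Synm probe set leave out 0, and the other intervals include it.

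Among the 24 probe sets the GIC arrays lay wholly below the non-GIC arrays in 6, wholly above in 1 and overlapped in 17. Groups did not overlap in 46.8% of all 34945 named probe sets, so non-overlap alone is common on these arrays. The 6 lower probe sets were the 3 of Nes and 1 each of Gfap, Nefh and Prph, and the higher one was of Synm. Of the 11 member probe sets past the filter, 2 passed the test and 9 did not.

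Markers of the labelled cell type and of other cell types were looked up. Of all 18193 genes, 13366 lay above the filter level on 2 or more arrays, so counts of markers above it identify no cell type. Of 11 neural stem and progenitor genes other than Nes, 7 lay above the filter level on all arrays, Cd24a, Sox2, Egfr, Sox9, Pax6, Hes5 and Msi1, and 3 on none, Nr2e1, Prom1 and Sox1. Fabp7, a lipid-binding protein of radial glia, had 5.23 and 5.23 in GIC, against 6.58 and 6.89 in non-GIC, and fell (-1.51, limma adjusted p = 0.0258). Both its GIC values lay under the filter level, and it was tested through its non-GIC arrays. Cd24a rose (1.22, limma adjusted p = 0.0356), and the other 6 tested did not pass. With 1 array left out, neither call held, with limma adjusted p between 0.0507 and 0.110 for Fabp7 and between 0.0724 and 0.20 for Cd24a. Sox2 and Sox9, which did not pass, are named after their values were seen. Sox2 had 10.20 and 10.59 in GIC, against 11.15 and 11.44 in non-GIC (log2 fold change -0.90, limma adjusted p = 0.144). Sox9 went the other way, with 10.13 and 9.24 in GIC, against 7.66 and 8.76 in non-GIC (1.47, limma adjusted p = 0.231). Of the 8 tested stem and progenitor genes, the sublines did not overlap in 6 (GIC below in 4 and above in 2), against 50.4% of all tested genes. Of 8 astrocyte genes 6 lay above the filter on all arrays and Aqp4 on none. Of 9 neuron genes 5 did, and Dcx, Elavl4 and Snap25 lay above it on none. Of 8 oligodendrocyte lineage genes 5 did, and Mog, Olig1 and Olig2 lay above it on none. The mean signal of these 8 genes was 6.58 and 6.55 in GIC, against 6.32 and 6.35 in non-GIC. Pdgfra, a PDGF receptor of that list named after its values were seen, had 12.51 and 12.09 in GIC, against 9.68 and 10.41 in non-GIC (2.26, limma adjusted p = 0.0504), and did not pass. The other tested genes of that list had differences between -0.08 and 0.13, and the median log2 fold change of the list was 0.00. In Mog, Olig1 and Olig2 the GIC arrays lay below the non-GIC arrays, all under the filter level. Their unfiltered differences were -0.10, -0.21 and -0.13 (limma adjusted p = 0.655, 0.433 and 0.578). Groups did not overlap in 46.8% of all named probe sets. The mean was 7.94 and 7.86 in GIC, against 7.96 and 8.18 in non-GIC for the astrocyte list, and 6.59 and 6.58 in GIC, against 6.63 and 6.76 in non-GIC for the neuron list, of which Map2 fell. Of 9 fibroblast, mural and smooth muscle genes 7 lay above it on all arrays, Acta2, Tagln, Col1a1, Col1a2, Dcn, Col3a1 and Pdgfrb, and Lum and Myh11 on none. The mean signal of those 9 genes was 10.52 and 9.56 in GIC, against 10.26 and 10.15 in non-GIC. Among them Col1a1 (13.59 and 10.70) and Col3a1 (13.89 and 11.32) differed most between the GIC arrays. For the 11 neural stem genes the mean was 7.63 and 7.56 in GIC, against 7.66 and 7.76 in non-GIC. Means of different lists come from different probe sets and are not set against each other. The endothelial list had 2 of 5 genes above the filter on all arrays, the leukocyte list 2 of 6, the skeletal and cardiac muscle list 5 of 8 and the peripheral neuron list 1 of 3. The part of cell composition in the Nes difference was not tested, and fewer Nes-expressing cells cannot be told apart from less Nes RNA per cell in these bulk samples.

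Of 12 other tested filament genes, among them lamins and keratins, none passed limma, with a median log2 fold change of 0.03, against -0.01 over all tested genes. An unadjusted p under 0.05 was reached by 2 of the 12, Lmnb1 and Lmna, which encode nuclear lamins, a share near the 17.9% of all tested genes that reached it. Lmnb1 had 10.64 and 10.68 in GIC, against 11.50 and 11.21 in non-GIC (log2 fold change -0.70, limma adjusted p = 0.152), and Lmna had 12.33 and 12.75 in GIC, against 13.14 and 13.07 in non-GIC (-0.57, adjusted p = 0.222). In both lamins the GIC arrays lay below the non-GIC arrays.

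Of 27 tested linkers and partners, which tie filaments to junctions, membranes and motors, 2 fell and 25 did not pass. The list's median log2 fold change was -0.16. Over all tested genes, 1.92% passed in either direction and 0.688% downward, which is the background for this list and the lists below. Pkp2, a plakophilin of desmosomal plaques, had 7.97 and 8.65 in GIC, against 10.77 and 10.74 in non-GIC (-2.44, limma adjusted p = 0.0346). Averaging its probe sets gave a Pkp2 difference of -1.31 (2.48-fold lower, against 5.44-fold). Dmd, which encodes dystrophin, had 5.67 and 6.07 in GIC, against 7.43 and 7.82 in non-GIC (-1.76, limma adjusted p = 0.0375). Plec, the plectin cross-linker that binds vimentin, is named after its values were seen. It had 11.30 and 11.40 in GIC, against 12.44 and 12.27 in non-GIC (-1.01, limma adjusted p = 0.0601), and did not pass.

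Of 10 chaperones, 1 fell, the small heat shock protein Hspb8, which had 5.60 and 5.62 in GIC, against 11.03 and 11.71 in non-GIC (-5.76, limma adjusted p = 0.00789). Averaging its probe sets gave a Hspb8 difference of -3.57 (11.9-fold lower, against 54.2-fold). The other 9 did not pass, among them Hspb1 and Cryab, and the list's median was 0.03. Of 19 kinases and processing enzymes none passed limma. For Cdk5, a kinase of neurofilaments, the difference was 0.59 (limma adjusted p = 0.272), and for the mitotic kinase Plk1 it was -0.70 (limma adjusted p = 0.341). Only Cdk5 of these 19 had an unadjusted p under 0.05, a share below the 17.9% of all tested genes.

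Of 41 tested regulators of filament genes, 1 rose, 1 fell and 39 did not pass, with a median of 0.01. The sublines did not overlap in 24 of the 41 (GIC above in 13 and below in 11), against 50.4% of all tested genes. The zinc finger factor Insm1 had 7.61 and 8.01 in GIC, against 5.21 and 5.02 in non-GIC (2.69, limma adjusted p = 0.0122). Sox11, a factor of immature neurons, had 5.19 and 5.35 in GIC, against 10.71 and 10.68 in non-GIC (-5.43, limma adjusted p = 0.00433). Averaging its probe sets gave a Sox11 difference of -4.45 (21.9-fold lower, against 43.0-fold). Both GIC arrays of Hspb8 and Sox11 and both non-GIC arrays of Insm1 lay under the filter level. The POU factor Pou3f2, known as a binder of the nestin enhancer with Sox2, is named after its values were seen. It had 7.44 and 7.25 in GIC, against 7.44 and 7.32 in non-GIC (-0.04, limma adjusted p = 0.917). Sox2 itself had the difference of -0.90 given above, with GIC below, and did not pass. Of the other POU factors, also named after their values were seen, Pou3f3 (-0.57, limma adjusted p = 0.261) and Pou3f1 (-0.29, adjusted p = 0.351) had GIC below. Pou3f4 (0.00) overlapped, and none passed. Lifr (1.95, limma adjusted p = 0.0931) and Osmr (3.45, adjusted p = 0.228), also named after their values were seen, had GIC above and did not pass. Sox9, with the difference of 1.47 given above, likewise had GIC above and did not pass.

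The neuronal cytoskeleton list, whose products work beside neurofilaments, had 2 lower genes and 19 that did not pass, with a median of -0.18. Map2, a dendritic microtubule protein, had 7.46 and 7.25 in GIC, against 9.50 and 9.79 in non-GIC (-2.29, limma adjusted p = 0.0190). Map1b, an axonal microtubule protein, had 8.99 and 9.14 in GIC, against 10.60 and 10.68 in non-GIC (-1.58, limma adjusted p = 0.0319). Over all tested genes the groups did not overlap in 50.4%. In this list the GIC arrays lay below the non-GIC arrays in 12 of the 21 tested. They lay above in 3, which are named after their values were seen and did not pass. These were the growth cone protein Gap43 (1.33, limma adjusted p = 0.33), the neuronal tubulin Tubb3 (1.15, adjusted p = 0.363) and ankyrin G, Ank3 (0.64, adjusted p = 0.221).

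Of 14 smooth muscle and contractile genes, whose products are linked to desmin or vimentin filaments in contractile cells, 6 fell and 8 did not pass. The median was -1.0, the furthest from 0 of the 7 lists, and the sublines did not overlap in 13 of the 14 (GIC below in 11 and above in 2), against 50.4% of all tested genes. The lists were chosen with earlier results of these data known, so this share is no independent result. The 2 with GIC above are named after their values were seen. Mylk, the myosin light chain kinase, had 10.64 and 9.54 in GIC, against 8.55 and 8.55 in non-GIC (1.54, limma adjusted p = 0.153), and the calponin Cnn2 had a difference of 0.15 (limma adjusted p = 0.548). Cnn1, a calponin of smooth muscle, had 6.95 and 6.81 in GIC, against 11.60 and 10.23 in non-GIC (-4.03, limma adjusted p = 0.0363). Myl9, a myosin light chain, had 11.22 and 10.39 in GIC, against 13.08 and 13.24 in non-GIC (-2.35, adjusted p = 0.0459). The smooth muscle actin Acta2 fell by 1.71, the tropomyosins Tpm2 and Tpm1 fell by 1.63 and 0.75, and the leiomodin Lmod1 fell by 1.34, with limma adjusted p from 0.0288 for Lmod1 to 0.0483 for Tpm2. The Acta2 signals of 14.75 and 14.76 in non-GIC lay near the top of the scale, as for Vim, and with multi-transcript probe sets left out the Acta2 difference was -3.68 (12.8-fold, against 3.28-fold). Des itself, the muscle member of the filament family, had the difference of 0.04 given above. Acta2 also belongs to the fibroblast and smooth muscle markers.

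Most calls in these lists were lost when an array was left out. Of the 13 listed genes past the threshold, Hspb8 and Sox11 passed with each array left out in turn, and 11 were lost in at least 1 such fit. Dropping the first GIC array lost 8 calls and the second 6, while dropping the first non-GIC array lost 11 and the second 10. The highest limma adjusted p among these fits was 0.275, for Tpm1 with the first non-GIC array dropped. The Cnn1 difference was -3.35 with that array dropped and -4.72 with the second dropped, the widest range among the 13. Hspb8 and Sox11 entered each of these fits through their non-GIC values alone, since their GIC values lay under the filter level. The filter was applied on all 4 arrays before an array was dropped, so their calls in these fits are no independent support. With all arrays, calls were also lost without an intensity trend (4: Dmd, Myl9, Tpm1 and Tpm2), without a level filter (3: Myl9, Tpm1 and Tpm2), with robust eBayes (2: Tpm1 and Tpm2), on leaving out multi-transcript probe sets (2: Tpm1 and Tpm2), with the mean of probe sets (2 of 12 tested: Map1b and Tpm1) and with quantile normalization (1: Tpm1).

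**Figure D3:**
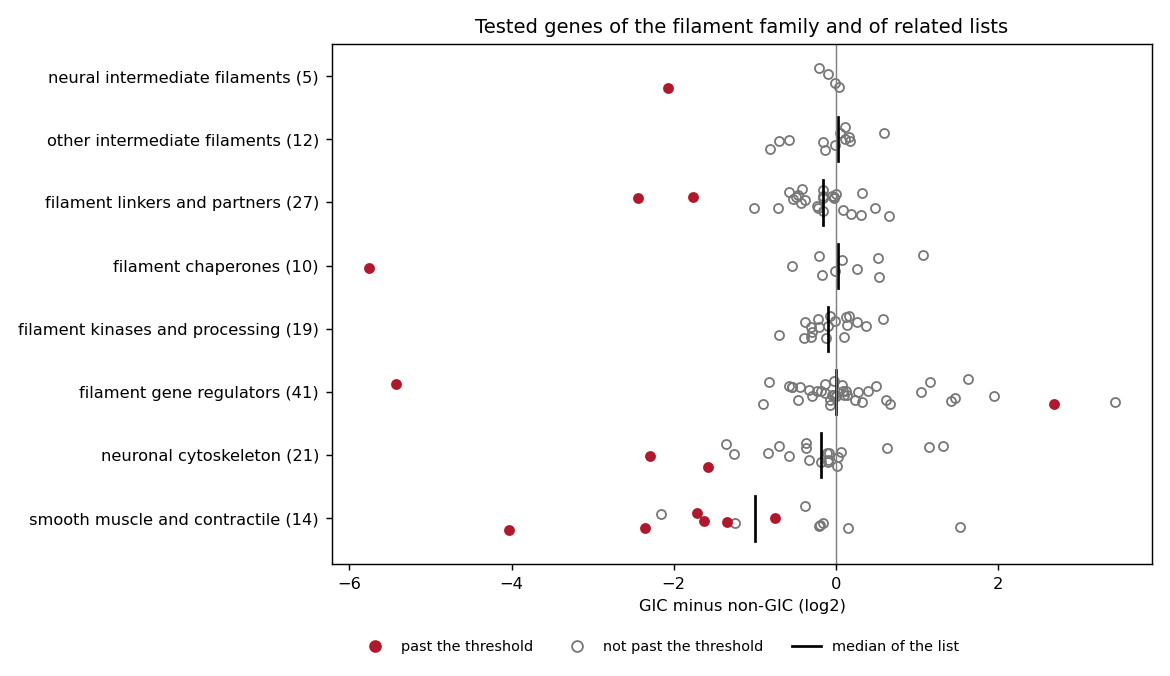
Log2 fold change (GIC minus non-GIC, horizontal axis) of each tested gene of the filament family and of 7 related lists, with the number tested in brackets. Filled points passed the threshold of 0.05, open points did not, and black bars are list medians; Nes stands apart from the 4 other tested filament genes, and the contractile list has 6 filled points below 0.

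The 5 genes whose values over the 4 arrays were most like those of Nes were found by the Euclidean distance between values centred on each gene's mean. They were P2ry2, a nucleotide receptor, with a distance of 0.31, the carboxypeptidase Prcp with 0.32, the NF-kappaB inhibitor Tnfaip3 with 0.33, the catenin Ctnnd2 with 0.33 and the actin-binding protein Cotl1 with 0.36. P2ry2 had 7.10 and 7.29 in GIC, against 9.49 and 8.78 in non-GIC. Cotl1 had 11.54 and 11.34 in GIC, against 13.57 and 13.44 in non-GIC. These genes were selected for their likeness over 4 arrays, so their direction is no finding.

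**Figure D4:**
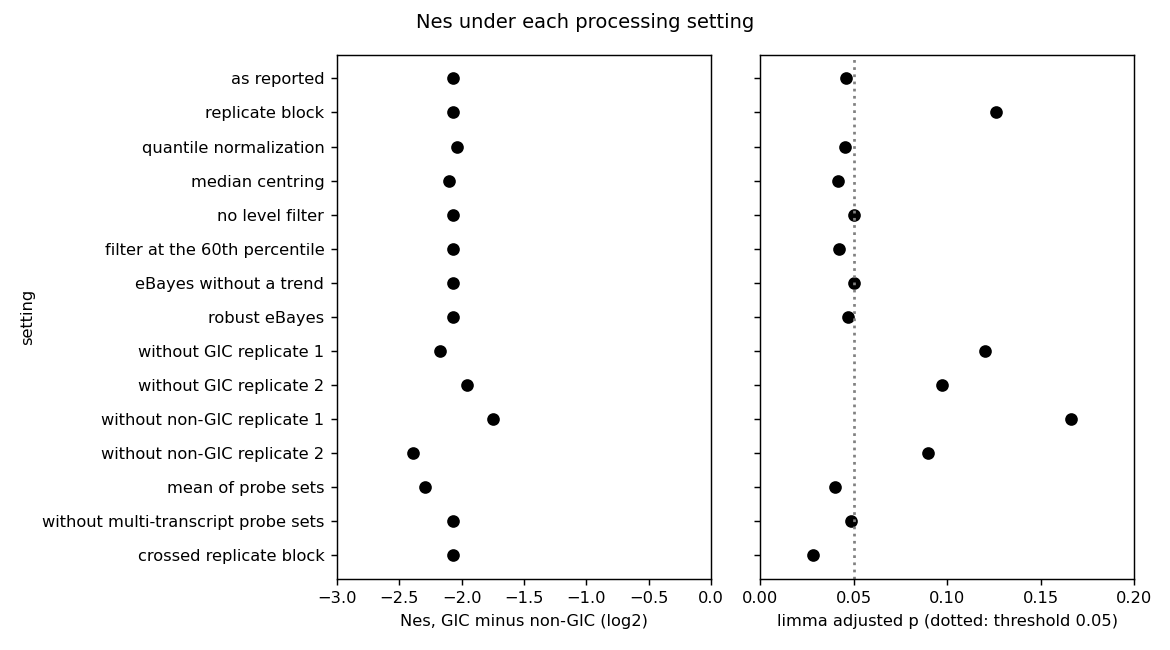
Nes log2 fold change (GIC minus non-GIC, left) and its limma adjusted p (right) as reported and under 14 other settings. The crossed replicate block among them was chosen after seeing the data. The fold change lies between -2.39 and -1.75 in every setting shown, and the adjusted p lies above the dotted threshold of 0.05 in 7 of the 14.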

How the data were processed

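Per the labels' protocols, biotin labelling by in vitro transcription started from 5 µg of total RNA per sample. The deposited values are log2 signals, with the log base read from their range (2.75 to 15.12). Array quantiles differed by at most 0.07, and no further normalization was applied. How the authors corrected background, summarised probes and normalized arrays is not given in the sources used here.

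Probe sets were named through the platform annotation, with symbols updated by Entrez identifier to GRCm38.p6. Of 45101 probe sets, 34945 had 1 gene, 932 had several and 9160 were unnamed here, and 64 were controls. Only those with 1 gene were used. Limma 3.58.1 in R 4.3.3 (lmFit, eBayes with an intensity trend, group only, two-sided) was fitted over 13366 genes and, separately, 24100 probe sets, with 2 residual and 2.72 prior degrees of freedom in the gene fit. The procedure was tested on simulated data, drawn with independent errors under the fit's own model of the spread. That test therefore does not show how the procedure behaves where real arrays depart from this model. Figures used matplotlib 3.10.9.

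The members and lists were chosen with earlier results of these data known. The naming rule took all members, list genes past the threshold (in a list without any, its 2 lowest p-values), and the 5 genes most like Nes. The alternatives were a replicate block, quantile normalization, median centring, other filters, other eBayes settings, other probe set choices and leaving out each array.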

Additional observations from a re-analysis of the deposited data

How the results depend on the processing

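The count of changed genes was 257 with all arrays, 29 with the replicate number as a block and 685 with a crossed block, which was chosen after seeing the data. For probe sets these counts were 409, 48 and 965. The labels give the arrays the same numbers but no shared source, so the numbers were not used as pairs in the main fit. The deviations of same-numbered arrays had a correlation of -0.32. A single correlation cannot tell whether same-numbered arrays shared a source. The Nes difference of -2.07 had an adjusted p of 0.126 with the replicate block and of 0.0284 with the crossed block. Of the 13 related genes called, 11 were not called with the replicate block. Leaving out 1 array gave 12 to 188 genes and 20 to 392 probe sets. The number of filament genes past the threshold was 1, and it was 0 with the replicate block, without a level filter and with eBayes without a trend, and 0 to 0 over the fits that left out 1 array. Nes passed under 7 of 14 alternatives, and the cause of the losses was not tested. The 7 include the crossed block, which was chosen after seeing the data. No other member passed under any alternative run (lowest adjusted p 0.321 at gene level, and 0.309 for a Synm probe set without a filter), and no called value turned sign. A lone array left in a subline takes its spread from the other subline. Signals under the filter level limit what can be said of Ina, the neurofilaments and Synm. Gfap and Prph, with signals near the array medians of 6.58 to 6.63, were not tested with the filter at the 60th percentile. Low signal thus also limits what their small differences show.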
